A study of Mus musculus with 6 samples.

Results

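The 10 genes described here, Isg15, Ifit1, Ifit2, Ifit3, Oasl1, Oasl2, Cxcl10, Bst2, Usp18 and Rsad2, encode effectors of the interferon response. They were taken by name at their RefSeq GRCm38 positions, out of 21887 protein-coding genes on chromosomes 1 to 19, X and Y. The rule used no peak value, but the genes were proposed with earlier results of these data known. They lie in 7 loci, since Ifit1, Ifit2 and Ifit3 share a stretch of chromosome 19 and Oasl1 and Oasl2 a stretch of chromosome 5, so the members of a locus share distal peaks. The samples were OG2X129 mouse embryonic fibroblasts put through chemical reprogramming to pluripotent stem cells, and each of 3 groups had 2 samples. CD-treated and DMSO-treated cells, DMSO being the solvent control, were profiled by CUT&Tag for H3K27ac, the acetylated histone residue that marks regulatory DNA in use. CUT&Tag directs a transposase to an antibody on chromatin, so that the released fragments mark where the antibody was bound. The series title names CD3254, a synthetic agonist of retinoid X receptors (RXR), RXRα, and the suppression of inflammation, which makes the state of these genes a question of the design. In the third group Flag-tagged Rxra was overexpressed and mapped with a Flag antibody. The labels do not say which construct drove Rxra, whether its cells also received CD or DMSO, on which day cells were taken, or whether replicates were separate cultures.

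Interferon-stimulated genes are switched on when interferon receptors activate ISGF3, a transcription factor complex that binds the interferon-stimulated response element (ISRE) in their promoters. In fibroblasts they are kept low at rest and are induced within hours by viral RNA or DNA, by interferon itself, or by derepressed retroelements. RXRα is a nuclear receptor that binds DNA as a dimer, often with a partner receptor, at repeats of a hexamer such as AGGTCA, and in macrophages ligand-bound RXR dimers can also repress inflammatory genes.

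The data used were 4 lists of called peaks, with 1 list for both CD samples together, 1 for both DMSO samples together and 1 for each Flag-Rxra replicate. The CD list held 104437 H3K27ac regions over 37.3 Mb and the DMSO list 75482 over 31.1 Mb, with median folds over the authors' background of 3.14 in CD and 3.11 in DMSO. The Flag-Rxra lists held 28243 and 45999 peaks in replicates 1 and 2, of which 17623 replicate 1 peaks overlapped a replicate 2 peak by at least 1 bp and are called shared. A peak's fold is its signal over the background estimated by the peak caller, and its −log10 q grows with the caller's confidence in it. Each H3K27ac condition had 1 list, so in these lists no value of CD or DMSO has a replicate error, no test was made between them, and the sequencing depth is unknown. Among 10 fibroblast markers, 4 had an H3K27ac region within 1 kb of a gene end in CD, against 38.3% of all protein-coding genes. In DMSO there were 4 as well, against 35.8%, so both counts were close to those of genes at large. Their summed covered bases within 2.5 kb were 5705 in CD and 6390 in DMSO. The means per marker were 571 in CD and 639 in DMSO, against 319.9 and 320.1 over all genes. Col1a1 had none in either list, Col1a2 none in CD, and Postn and Fbn1 none in DMSO. By the count within 1 kb, the called regions did not set the markers of the labelled cell type apart from genes at large. Of 8 markers of macrophages, which also express interferon-stimulated genes, 2 had a region within 1 kb in CD and 1 in DMSO. The shares of all genes were again 38.3% in CD and 35.8% in DMSO. Summed covered bases of the 8 markers were 3464 in CD and 1469 in DMSO. Ptprc, Adgre1, Itgam and Tyrobp were at 0 in both lists, and in DMSO 7 of the 8 were. The 5 endothelial markers summed to 1726 covered bases in CD and 1343 in DMSO, with Kdr at 0 in CD and Cdh5 at 0 in DMSO, and the 3 keratinocyte markers summed to 279 in CD and 149 in DMSO, with Trp63 at 0 in CD and Krt5 and Krt14 at 0 in DMSO. The part of other cell types in the values below was not tested.

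The promoters of 5 genes are shown as examples. Cxcl10 and Bst2 were under Flag-Rxra peaks of both replicates, Rsad2 under a replicate 2 peak, and Isg15 and Ifit1 under none although each holds ISRE cores. Ifit3, which also holds ISRE cores, was under none as well and is not shown. The sequences are from RefSeq on GRCm38.p6, run 5′ to 3′ along the gene from 250 bases before the start to 50 after it, and have in capitals each ISRE core (GAAANNGAAA) and each nuclear receptor hexamer (AGGTCA or GGGTCA) on either strand.
Cxcl10 promoter, chr5:92348840-92349139, minus strand: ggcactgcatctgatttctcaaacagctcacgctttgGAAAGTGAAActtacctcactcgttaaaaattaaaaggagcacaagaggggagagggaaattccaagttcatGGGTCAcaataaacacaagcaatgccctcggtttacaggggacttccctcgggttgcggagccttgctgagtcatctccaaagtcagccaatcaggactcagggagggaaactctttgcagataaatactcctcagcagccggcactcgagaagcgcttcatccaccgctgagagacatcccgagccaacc
Bst2 promoter, chr8:71537423-71537722, minus strand: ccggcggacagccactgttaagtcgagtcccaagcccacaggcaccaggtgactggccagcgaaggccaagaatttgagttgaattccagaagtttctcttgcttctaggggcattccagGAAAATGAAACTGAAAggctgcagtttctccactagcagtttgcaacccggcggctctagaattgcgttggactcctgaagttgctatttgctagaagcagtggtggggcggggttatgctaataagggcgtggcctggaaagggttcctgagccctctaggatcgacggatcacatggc
Rsad2 promoter, chr12:26456403-26456702, minus strand: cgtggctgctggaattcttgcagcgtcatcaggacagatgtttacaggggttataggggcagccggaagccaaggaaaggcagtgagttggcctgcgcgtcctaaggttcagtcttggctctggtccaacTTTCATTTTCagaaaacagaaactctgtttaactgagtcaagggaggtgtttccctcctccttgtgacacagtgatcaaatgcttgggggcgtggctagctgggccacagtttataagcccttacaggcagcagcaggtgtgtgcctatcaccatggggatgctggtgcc
Isg15 promoter, chr4:156200769-156201068, minus strand: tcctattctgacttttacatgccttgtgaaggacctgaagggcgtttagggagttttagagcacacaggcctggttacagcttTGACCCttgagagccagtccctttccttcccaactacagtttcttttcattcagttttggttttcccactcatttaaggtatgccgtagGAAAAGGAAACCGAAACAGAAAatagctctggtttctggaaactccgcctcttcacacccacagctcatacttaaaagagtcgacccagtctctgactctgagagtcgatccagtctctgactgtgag
Ifit1 promoter, chr19:34640639-34640938, plus strand: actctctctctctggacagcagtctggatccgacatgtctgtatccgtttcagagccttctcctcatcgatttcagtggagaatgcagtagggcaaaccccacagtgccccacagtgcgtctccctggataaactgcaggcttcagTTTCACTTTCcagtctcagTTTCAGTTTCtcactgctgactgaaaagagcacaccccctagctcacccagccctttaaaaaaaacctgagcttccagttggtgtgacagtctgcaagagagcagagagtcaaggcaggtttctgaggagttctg

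The promoter table held 9 of the 10 genes, with 2 promoters for Ifit2 and 1 for each of the others. An ISRE core lay in 6 of these 10 promoters, against 3.44% of all 32851 promoters in the table. Isg15, the ubiquitin-like protein joined to other proteins during infection, had 3 overlapping cores at -78 to -57, counted from the gene start. Ifit1 had cores at -104 to -95 and -85 to -76, and Ifit3 at -156 to -147 and -122 to -113. Cxcl10 had 1 core at -213 to -204, Rsad2 had 1 at -120 to -111, and Bst2 had 2 overlapping cores from -130 to -115. The exact letters GAAANNGAAA were not in the windows of Ifit2, Oasl1 or Oasl2. The GAS element (TTCNNNGAA), another interferon-responsive element, lay in 8.30% of all promoters and in those of Ifit2 and Bst2, where it overlapped the first ISRE core of Bst2.

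AGGTCA, the receptor hexamer, was found in 1 of the 10 promoters, that of Oasl1, and in 16.3% of all promoters, while GGGTCA was found in those of Cxcl10 and Isg15 and in 13.7% of all. No promoter of the 10 held a DR1, DR4 or DR5, which are direct repeats of AGGTCA with 1, 4 or 5 bases between, and only 13, 5 and 3 promoters of the whole table did. AP-1 letters (TGANTCA), the site of Fos and Jun factors, lay in the promoters of Ifit3, Cxcl10 and Rsad2 and in 7.81% of all. The strict NF-kB letters GGGNNTTTCC lay in none of the 10 and in 1.63% of all, and the usual degenerate NF-kB consensus lay in those of Oasl1, Cxcl10 and Bst2 and in 4.51% of all. Cxcl10 held 2 such matches, at -159 to -150 and -103 to -94, so its promoter had ISRE, NF-kB, AP-1 and hexamer letters within the stretch under its Flag-Rxra peaks. These matches describe letters and say nothing of what was bound.

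**Figure D1:**
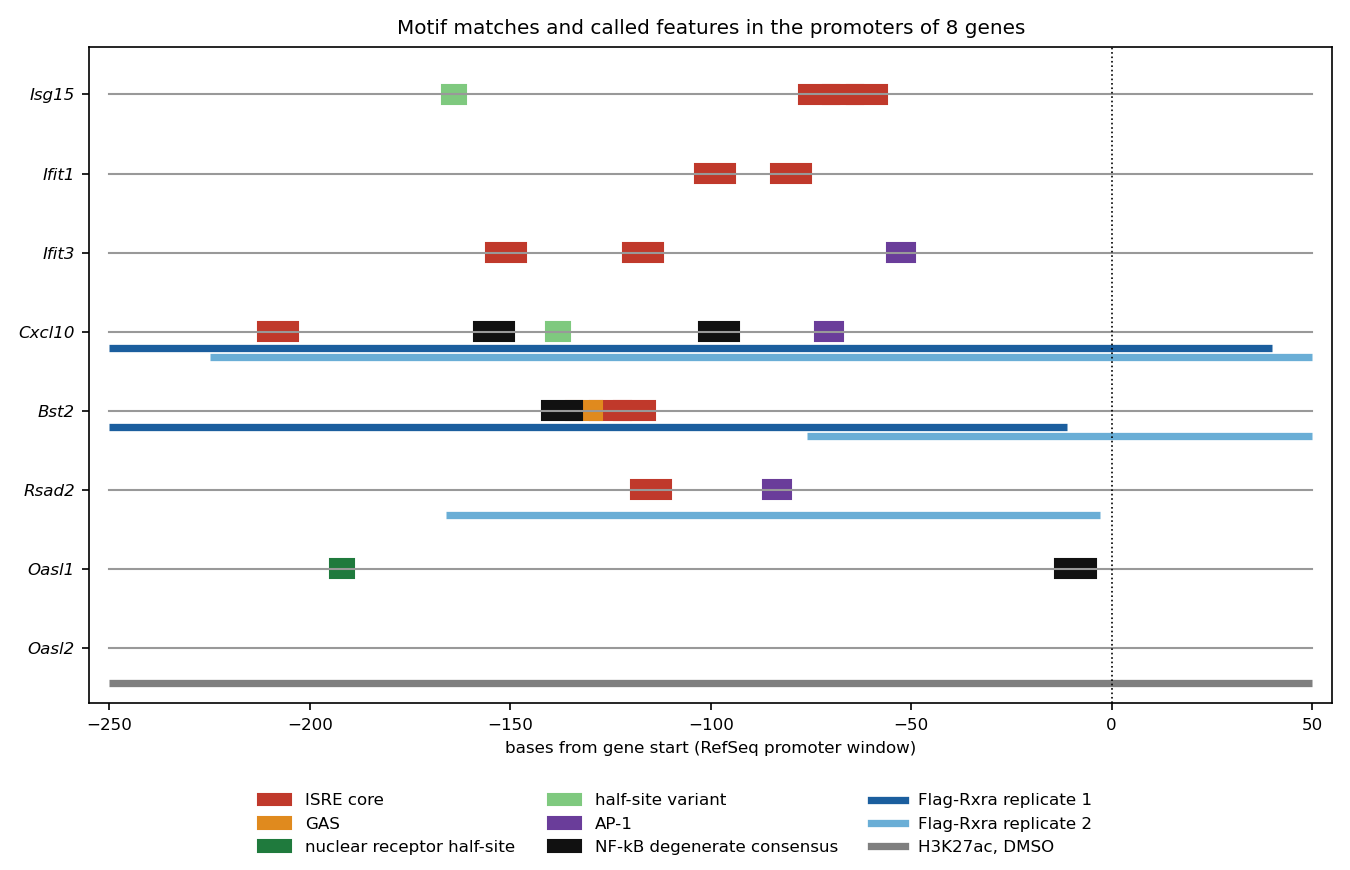
Motif matches and called features in the promoters of 8 of the genes, on an axis of bases from the gene start. Coloured blocks are motif matches on either strand (matches that overlap are drawn over each other), and bars under a promoter are Flag-Rxra peaks of replicates 1 and 2 or a DMSO H3K27ac region. Flag-Rxra bars lie under Cxcl10, Bst2 and Rsad2 alone, and the ISRE cores of Isg15, Ifit1 and Ifit3 have no bar under them.

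Flag-Rxra peaks lay at the gene ends of 3 of the 10 genes. Shared peaks were within 1 kb of an end of Ifit3, Cxcl10 and Bst2, that is 3 of 10, against 32.6% of all protein-coding genes. Within 2.5 kb there were 5 of 10, with Isg15 and Usp18 added, against 37.0% of all genes, and within 50 kb there were 9 of 10, all but Ifit1, against 68.1%. The count within 1 kb was thus close to that of genes at large. Where the replicates' peaks had to overlap by 50% of both, Cxcl10 alone counted, against 20.2% of all genes. Replicate 1 alone had peaks within 1 kb of the same 3 genes, against 41.7% of all genes, and replicate 2 alone of 5, with Ifit2 and Rsad2 added, against 42.1%. At the annotated start itself, 2 of 9 genes with a promoter in the table, Cxcl10 and Bst2, had a shared peak within 1 kb, against 34.3% of 17492 genes. A shared peak overlapped the 300-base promoter of the same 2 of 9 genes, against 31.2% of all, and a replicate 2 peak overlapped 3 of 9, with Rsad2 added, against 35.7%.

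Cxcl10 encodes a secreted chemokine that draws CXCR3-bearing T cells. The gene occupies chr5:92346638-92348889 on the minus strand, inside the longer span of Art3. Its promoter peak spanned chr5:92348850-92349151 in replicate 1, with a fold enrichment of 13.3 and a −log10 q of 40.8, and chr5:92348825-92349114 in replicate 2, with 24.7 and 85.7. The peaks covered 290 and 275 of the 300 promoter bases, overlapped each other by 265 bp, and had summits at -90 and -117. The ISRE core, both NF-kB matches, the AP-1 site and GGGTCA lay inside the peaks of both replicates. Among the 7128 genes with a shared peak within 1 kb, Cxcl10 ranked 2298 by fold in replicate 1 and 685 in replicate 2. Its fold thus exceeded that of most such genes, whose medians were 11.3 in replicate 1 and 15.7 in replicate 2.

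Bst2 encodes tetherin, a membrane protein that holds budding virus particles at the cell surface. It lies at chr8:71534255-71537472 on the minus strand. Its promoter peak spanned chr8:71537483-71537747 in replicate 1, with a fold of 9.59, and chr8:71537399-71537548 in replicate 2, with a fold of 21.5. The peaks overlapped by 66 bp, and their summits lay at -69 and -17. The replicate 1 peak covered 240 promoter bases, ISRE cores included, whereas the replicate 2 peak covered 126 bases from -76 on and left those cores outside. Bst2 ranked 4859 by fold in replicate 1 and 1364 in replicate 2 among the 7128 genes, so the replicates placed it differently. Within 50 kb lay 8 shared peaks, of which only the promoter peak was nearest to an end of Bst2. Among the others were one 12318 bp from the gene with folds of 17.8 and 19.03 in replicates 1 and 2, one at Mvb12a with 11.7 and 20.03, and one at Tmem221 with 11.4 and 18.3. Of the 10 genes, Bst2 had the most shared peaks within 50 kb. How many lie within 50 kb of genes at large was not computed.

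Rsad2 encodes viperin, an enzyme that makes a chain-terminating nucleotide against viral polymerases, and lies at chr12:26442743-26456452 on the minus strand. Only replicate 2 had a peak on its promoter, at chr12:26456455-26456618, with a fold of 5.52 and a −log10 q of 6.39, near the floor of that list. This peak covered 164 promoter bases and the ISRE core, and its summit lay at -21. The fold was above that of 3.51% of the replicate 2 list. The single shared peak within 50 kb of Rsad2 lay 43670 bp from the gene, with folds of 7.57 and 16.3 in replicates 1 and 2.

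Among the IFIT genes, whose proteins bind foreign RNA and limit its translation, shared peaks lay in the bodies of Ifit2 and Ifit3 and not at a promoter. Ifit3 lies at chr19:34583119-34588982 on the plus strand. Near its 3′ end replicate 1 had a peak at chr19:34588193-34588600 with a fold of 7.23, and replicate 2 had a peak with a fold of 23.9 wholly inside it and another, with a fold of 6.86, beside it that shared 9 bp with it. The summit of the replicate 1 peak was 657 bp from the annotated end. Ifit3 therefore counted among the genes with a shared peak through its 3′ end and not through its ISRE cores. Ifit2, at chr19:34550550-34576534 on the plus strand, had 2 shared peaks inside the gene, 18164 and 18797 bp after the later of its 2 starts, with folds of 6.49 and 6.74 in replicate 1 and 6.62 and 12.8 in replicate 2. A replicate 2 peak with a fold of 16.0, at chr19:34552116-34552285 and 1135 bp after that start, had no partner in replicate 1. A further replicate 2 peak with a fold of 9.83 lay 699 bp past the end of Ifit2. Ifit1, at chr19:34640889-34650009 on the plus strand and inside the span of Ifit1bl1, had no shared peak within 50 kb. The highest replicate 1 fold in the windows of the 10 genes, 22.6, stood at Lipa, a neighbour of Ifit2 that encodes a lysosomal lipase, and its replicate 2 fold was 14.3.

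Isg15 and Usp18 act as a pair, since Usp18 removes Isg15 from its targets and restrains the interferon receptor. Isg15 lies at chr4:156199424-156200818 on the minus strand and is 1395 bp long. Shared peaks flanked it on both sides, one 1239 bp beyond its 3′ end with folds of 10.2 and 12.5 in replicates 1 and 2, and one 1821 bp upstream with 6.62 and 11.2. Both stood nearer to other genes, since the first lay 516 bp from an end of Agrn and the second 610 bp from an end of Perm1, by the replicate 1 summits. Usp18, at chr6:121245906-121270917, had a shared peak 1563 bp beyond its higher annotated end, with folds of 15.6 in replicate 1 and 14.7 in replicate 2. That fold was above 91.4% of the replicate 1 list and 72.8% of the replicate 2 list.

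Oasl1 and Oasl2 encode proteins related to oligoadenylate synthetases, and mouse Oasl1 is known to block translation of Irf7. Neither had a shared peak within 2.5 kb. Oasl1, at chr5:114923143-114937911 on the plus strand, had a shared peak inside the gene, 3193 bp after the start, with folds of 8.22 and 9.87 in replicates 1 and 2. Oasl2, at chr5:114896926-114912245 on the plus strand, had one 3506 bp before the gene with folds of 9.78 and 15.9.

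**Figure D2:**
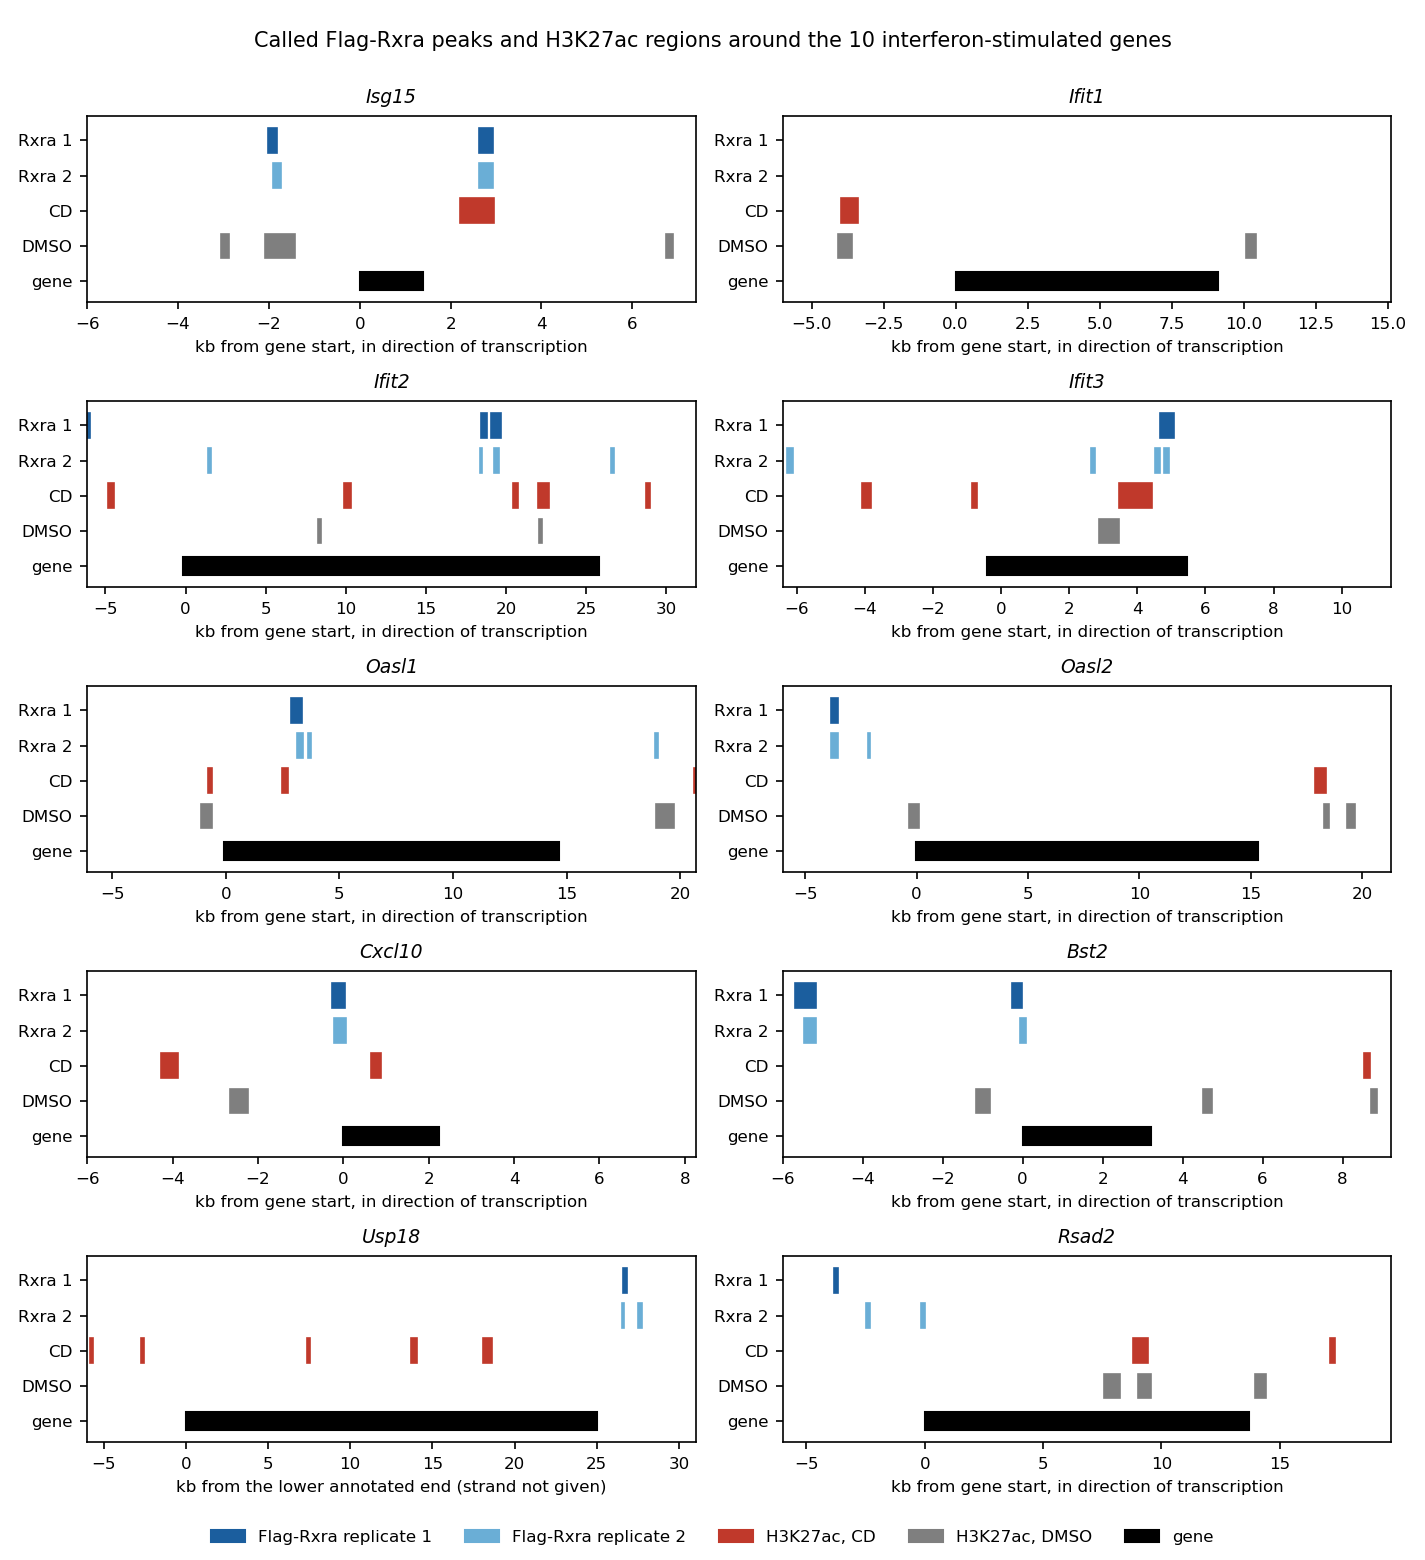
Called features around each of the 10 genes, on axes of kb from the gene start in the direction of transcription (for Usp18, kb from the lower annotated end). Rows are Flag-Rxra peaks of replicates 1 and 2, H3K27ac regions of CD and of DMSO, and the annotated gene, and the panels reach 6 kb beyond each end. Flag-Rxra blocks of both replicates stand at the starts of Cxcl10 and Bst2, and CD and DMSO blocks mostly stand at different places.

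Counted once, 21 shared peaks lay within 50 kb of the 10 genes, and 8 of them were nearer to an end of one of these genes than to any other protein-coding gene. Their folds ranged from 5.69 to 22.6 in replicate 1, with a median of 9.69, and from 6.62 to 24.7 in replicate 2, with a median of 14.3. Over all 17623 shared peaks the medians were 10.3 and 14.4 in replicates 1 and 2, so the peaks around these genes were of ordinary height. Of the replicate 1 peaks within 50 kb, 21 of 28 (75.0%) had a replicate 2 partner, against 62.4% of the whole list, and of the replicate 2 peaks 22 of 51 (43.1%) had a replicate 1 partner, against 40.5%. Of the 21 shared peaks, 4 (19.05%) overlapped a CD H3K27ac region by at least 1 bp, against 26.9% of all shared peaks. A DMSO region was overlapped by 4 (19.05%), against 34.4%. Neither the Cxcl10 nor the Bst2 promoter peak lay in an H3K27ac region of CD or DMSO.

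**Figure D3:**
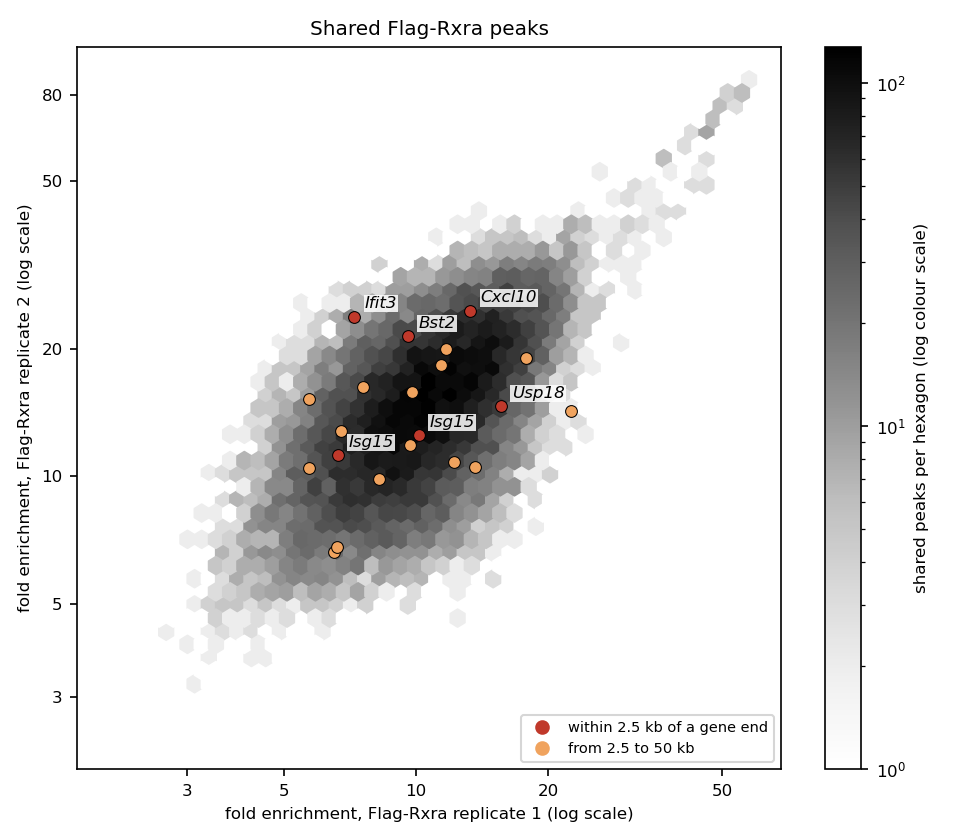
Fold enrichment over the authors' background of shared Flag-Rxra peaks, replicate 1 on the x axis and the strongest overlapping replicate 2 peak on the y axis, both on log scales. Grey hexagons count all 17623 shared peaks, and points are the 21 peaks within 50 kb of the 10 genes, named where they lie within 2.5 kb. Cxcl10, Bst2 and Ifit3 have replicate 2 folds of 21.5 to 24.7 and replicate 1 folds of 7.23 to 13.3.

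Within 1 kb of their ends, most members with an H3K27ac region had it in CD or in DMSO and not in both. In CD, 4 of 10 genes had a region within 1 kb of an end, namely Isg15, Ifit3, Oasl1 and Cxcl10, against 38.3% of all genes. In DMSO there were 5 of 10, namely Ifit1, Oasl1, Oasl2, Bst2 and Rsad2, against 35.8%. Oasl1 was the 1 gene of 10 with a region in both lists, against 21.2% of all genes. A region in CD and not in DMSO was found for 3 of 10, against 17.1%, and in DMSO and not in CD for 4 of 10, against 14.7%. Ifit2 and Usp18 had none in either. Within 2.5 kb, the counts were 4 of 10 in CD, against 56.2% of all genes, and 8 of 10 in DMSO, against 49.4%, and all 4 CD genes were among the 8. Within 50 kb all 10 genes had a region in both lists, against 89.3% of all genes in CD and 83.3% in DMSO.

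Nearly all of these regions were weak by the authors' scores. The 70 CD regions within 50 kb of the genes had a median −log10 q of 1.36, and the 70 DMSO regions a median of 1.48, where both lists begin at 1.00. Each was close to the median of its whole list, which was 1.39 in CD. A −log10 q of 5 was reached by 2 of the 70 CD regions, against 0.652% of the whole CD list. In DMSO 1 of the 70 reached it, against 0.955% of the whole list. Low scores were thus a trait of both lists and not of these genes. At a −log10 q of 2 or more, Oasl1 alone kept a region within 1 kb, in CD as in DMSO. Of all genes, 6.65% had such a region in CD and 8.84% in DMSO. Of the 70 CD regions 13 (18.6%) overlapped a DMSO region, against 13.9% of the whole CD list, and 13 of the 70 DMSO regions (18.6%) overlapped a CD region, against 19.2% of the whole DMSO list. Most regions around these genes thus had no counterpart in the other list, as in the lists as a whole.

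Oasl1 had the strongest H3K27ac region of the 10 genes, upstream of its start. It spanned chr5:114922454-114922616 in CD, with a fold of 8.17 and a −log10 q of 17.6, and chr5:114922134-114922634 in DMSO, with 8.18 and 17.6. It was wider in DMSO, so that within 2.5 kb of Oasl1 163 bases were covered in CD and 501 in DMSO. Its fold was above that of 99.8% of the regions in the CD list and 99.7% in the DMSO list. Oasl2 had 0 covered bases within that distance in CD, against 472 in DMSO, from 1 region at chr5:114896580-114897051 with a fold of 3.29 that covered the whole promoter window.

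Within 2.5 kb of Cxcl10, CD regions covered 235 bases, inside the gene, and DMSO regions 270, upstream. From 2.5 to 50 kb the coverage was 3796 bases in CD and 1496 in DMSO, a ratio of 2.54, with 11 regions within 50 kb in CD and 6 in DMSO. One CD region in that window overlapped the second shared Flag-Rxra peak near Cxcl10, 49326 bp from the gene, with folds of 13.7 and 10.5 in replicates 1 and 2. Cxcl10 was the 1 gene of 10 with at least 1.5-fold more covered bases in CD in this outer window, against 35.6% of all genes.

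Bst2 had the opposite balance. Within 2.5 kb its covered bases were 0 in CD and 559 in DMSO, from 1 region 822 bp upstream of the gene with a fold of 2.83 and another 1287 bp beyond its 3′ end with 2.76. From 2.5 to 50 kb it had 3209 in CD and 5151 in DMSO, a ratio of 0.623. Ifit1 likewise had 0 near its ends in CD, against 371 in DMSO, and 1745 farther out in CD, against 3141 in DMSO. Bst2 and Ifit1 were the 2 of 10 genes with at least 1.5-fold fewer covered bases in CD from 2.5 to 50 kb, against 12.2% of all genes.

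Near the ends of Rsad2, CD regions covered 0 bases and DMSO regions 439, from a region 266 bp beyond its 3′ end. Inside the gene both lists had a region, at chr12:26447008-26447643 in CD with a fold of 3.32 and at chr12:26446875-26447432 in DMSO with 3.71. For Isg15 the covered bases were 761 in CD and 662 in DMSO, but at different sides of the gene. The CD region lay beyond the 3′ end and held the shared Flag-Rxra peak near Agrn, and the DMSO region lay upstream and held the one near Perm1. Ifit3 had 1137 in CD and 502 in DMSO, and its CD regions lay 306 bp before the annotated gene, with a fold of 2.93, and in its body, with 3.35. Usp18 and Ifit2 had 0 within 2.5 kb in both lists, and farther out Usp18 had 3244 in CD and 2197 in DMSO, and Ifit2 4894 in CD and 6539 in DMSO.

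Over the 10 genes, fewer bases were covered in CD for most members. Within 2.5 kb, 2 genes had more covered bases in CD than in DMSO, 6 had fewer and 2 had none in either. Of all 21887 genes, 7833 had more in CD, 7032 had fewer and 7022 were equal. The median CD minus DMSO difference was -186.5 bases over the 10 genes and 0 over all genes, and the mean coverage was 230 bases in CD and 378 in DMSO over the 10 genes, and 319.9 in CD and 320.1 in DMSO over all genes. By the 1.5-fold rule, 1 of 10 genes (Ifit3) had more covered bases in CD, against 29.7% of all genes, and 5 of 10 (Ifit1, Oasl1, Oasl2, Bst2 and Rsad2) had fewer, against 25.5%. Oasl1 was among the 5 through the called width of its region alone, since the fold was 8.17 in CD and 8.18 in DMSO. From 2.5 to 50 kb, 3 genes had more and 7 fewer, where 13000 of all genes had more, 6712 fewer and 2175 were equal. The median difference was -617.5 bases over the 10 genes and 262 over all genes. With the lists matched in covered length, 2 genes had more and 8 fewer in this outer window, as Ifit3 changed side. The median over all genes was then 0. At a −log10 q of 2 or more Ifit3 had fewer and Isg15 more. The Ifit genes share part of this outer window, as do the Oasl genes, and with 1 value per locus the medians were -35 within 2.5 kb and -579 from 2.5 to 50 kb. Counting only regions that reached a −log10 q of 2, the median within 2.5 kb was 0. Ifit3 was then higher in CD, Oasl1 lower, again by called width alone, and 8 genes were equal. Within 2.5 kb, the difference of a single gene rests on at most 2 regions in each list. Except at Oasl1, all of these were below a −log10 q of 5. Within 50 kb each gene had 5 to 13 regions per list, most of them weak. Whether the differences of single genes exceed the spread between cultures cannot be told from these lists.

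**Figure D4:**
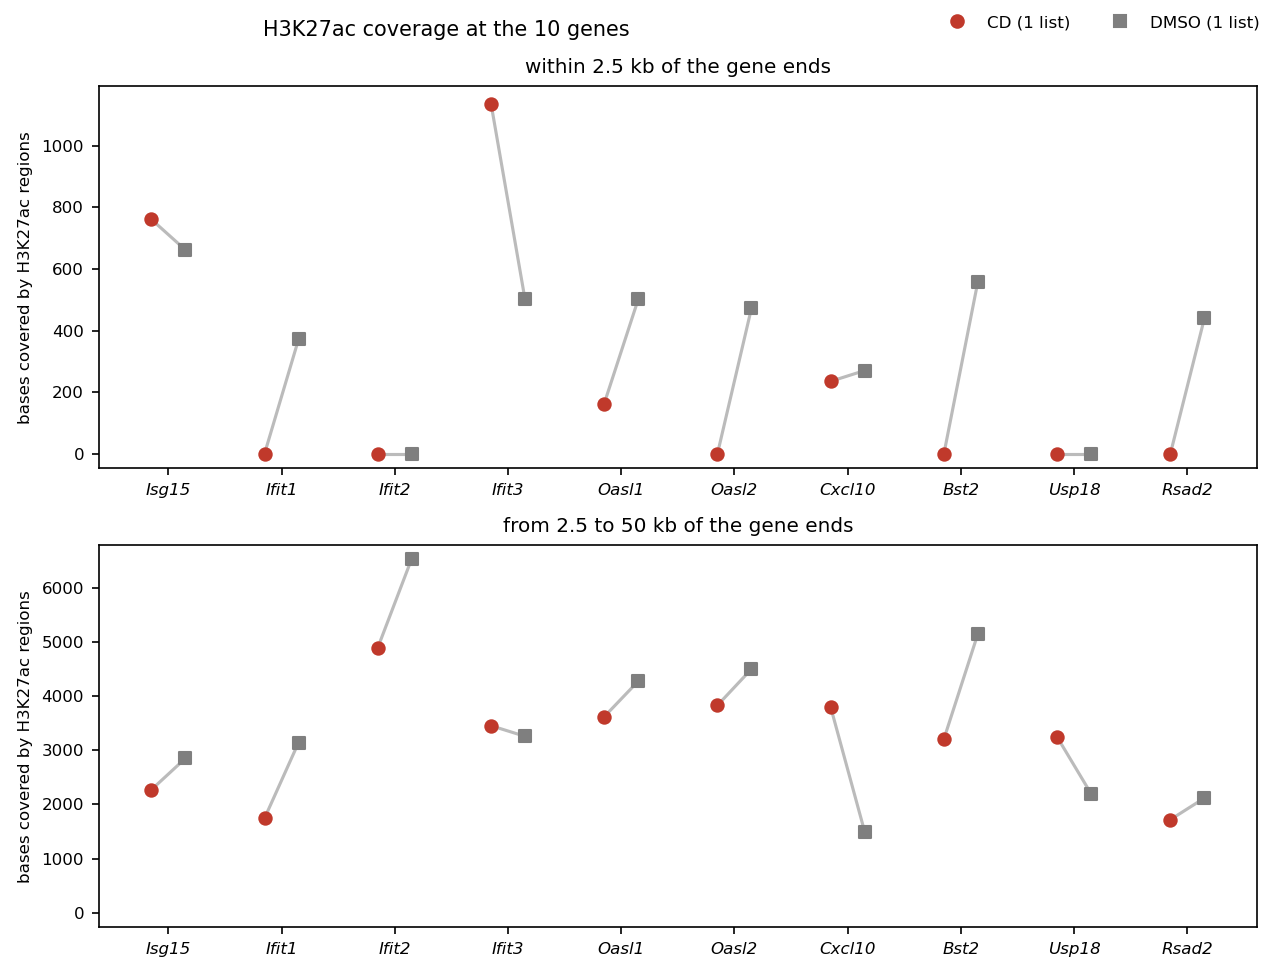
Bases covered by called H3K27ac regions at each of the 10 genes within 2.5 kb of the gene ends (upper panel) and from 2.5 to 50 kb (lower panel), with CD as circles left of DMSO as squares. Each point is the value of 1 list, so no error bar is given. In the upper panel 4 genes stand at 0 in CD and above 0 in DMSO (Ifit1, Oasl2, Bst2 and Rsad2), and in the lower panel Cxcl10 stands highest above its DMSO value.

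The other genes of the response were taken from a list of 70 names commonly induced by interferon, of which 4 matched no gene in the annotation used and 1 matched, as a synonym, a gene already listed, leaving 65 genes. A shared Flag-Rxra peak lay within 1 kb of 12 of them (18.5%), where it did for 32.6% of all genes, and within 50 kb of 43 (66.2%), against 68.1%. In each replicate alone the shares were close to those of all genes, with a peak within 1 kb at 24 (36.9%) in replicate 1, against 41.7%, and at 27 (41.5%) in replicate 2, against 42.1%. The difference in shared peaks was not tested. Ifit3b, Ifit1bl1, Ifit1bl2, Cmpk2 and Cxcl9 lie within 50 kb of a member, and others, such as Tap1, Psmb8 and Psmb9, lie side by side. Such genes share distal peaks and regions, so the counts are not of separate loci. The 12 included the ISGF3 subunits Irf9, with folds of 18.2 and 25.4 in replicates 1 and 2, and Stat2, with 10.3 and 18.6, whose products form the complex that binds ISREs. They also included the RNA sensor Ddx58, with 6.66 and 16.3, and Samhd1, which breaks down deoxynucleotides, with 13.7 and 16.4. The antigen presentation genes B2m (10.9 and 16.2), Psmb8 (7.94 and 9.75) and Tap1 and Psmb9, which share 1 peak (6.40 and 8.88), were among them too. Ifi204 (14.1 and 21.8), Ifitm1 (11.2 and 7.61), Tor3a (8.54 and 8.06) and Tdrd7 (6.37 and 18.4) completed the 12.

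H3K27ac at these 65 genes differed in both directions, as it did over all genes. A region lay within 1 kb of 32 (49.2%) in CD, against 38.3% of all genes, and of 36 (55.4%) in DMSO, against 35.8%. Within 2.5 kb, 23 (35.4%) had at least 1.5-fold more covered bases in CD, against 29.7% of all genes, and 20 (30.8%) fewer, against 25.5%, and the median CD minus DMSO difference was 0 for both. From 2.5 to 50 kb, 26 (40.0%) had more, against 35.6%, and 8 (12.3%) fewer, against 12.2%, with a median of 452, against 262 over all genes. The lowest differences within 2.5 kb were those of Rtp4, with 702 covered bases in CD and 2686 in DMSO, B2m, with 378 in CD and 1823 in DMSO, Psmb9, with 0 in CD and 1116 in DMSO, and Ifit3b, with 405 in CD and 1405 in DMSO. The highest were those of Rnf213, with 1273 in CD and 201 in DMSO, Dhx58, with 985 in CD and 0 in DMSO, Isg20, with 1456 in CD and 523 in DMSO, and Xaf1, with 888 in CD and 0 in DMSO. Within 50 kb, Rtp4 (4447 in CD and 7699 in DMSO), B2m (2598 in CD and 5498 in DMSO), Irf9 (3191 in CD and 5629 in DMSO) and Stat2 (3097 in CD and 5101 in DMSO) stood lowest. Xaf1 (4311 in CD and 230 in DMSO), Parp12 (5555 in CD and 1958 in DMSO), Sp100 (4819 in CD and 1789 in DMSO) and Sp110 (4019 in CD and 1368 in DMSO) stood highest. Whether the 10 genes differ from these 65 was not tested.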

How the data were processed

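CUT&Tag was made with an H3K27ac antibody in CD (2 samples) and DMSO (2 samples) and with a Flag antibody in Flag-Rxra cells (2 samples). Per the submitters' processing notes, the build was mm10, which is GRCm38, and the tools were MACS2 2.1.2, Bowtie2 2.2.5, deepTools 3.4.3 and fastp 0.20.1. The authors deposited broad regions for H3K27ac, 1 list per condition per the labels, and narrow peaks for each Flag-Rxra replicate. The way in which H3K27ac replicates were combined and any use of a control library are not given in the sources used here. In each deposited list the fold is a ratio of signal over the peak caller's background, the −log10 q is the caller's own, and a peak's summit in the narrow lists is an offset from its start, as deposited. Folds describe and rank peaks within a list only, and the caller stopped at a −log10 q of 1.00 for H3K27ac and 5.00 for Flag-Rxra. No reads or counts were given, so the depth is unknown, and the signal tracks were not analysed here.

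The autosomes, X and Y were used. The software was matplotlib 3.10.9, pandas 2.3.3, numpy 2.4.6 and Python 3.11.15. A gene had a feature when 1 bp or more of it lay within 1 kb, 2.5 kb or 50 kb of either annotated gene end. Covered bases were summed within 2.5 kb and from 2.5 to 50 kb, and 1.5-fold apart was taken as a difference. Motifs were searched on both strands of RefSeq promoters. The overlap and covered-base steps were checked on simulated regions, and the motif search was not. The members and lists were chosen with earlier results of these data known. Named were all 10 members, other interferon-stimulated genes with a shared peak within 1 kb, the 4 highest and the 4 lowest of these by CD minus DMSO covered bases within 2.5 kb and 50 kb, and neighbours with a peak counted for a member. Alternatives changed the distance, the minimum −log10 q, the overlap, the replicates and the coverage measure. The NF-kB consensus, GGGTCA and the removal of Flag-Rxra peaks in strong H3K27ac regions were added after the data were seen. Of the 70 names of the interferon list, 4 matched no gene in the annotation used and 1 matched Oas1g as a synonym, which is on the list, leaving 65 genes.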

Additional observations from a re-analysis of the deposited data

How the results depend on the processing

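Of the 10 genes, 3 had a shared Flag-Rxra peak within 1 kb. There were 5 within 2.5 kb and 9 within 50 kb, 1 (Cxcl10) when 50% of both peaks had to overlap, and between 3 and 5 when either Flag-Rxra replicate was left out. The count was 3 at a −log10 q of 10 or more and also without peaks in H3K27ac regions of 5 or more, an alternative added after the data were seen, and it was 2 at 20 or more and at the gene start alone (Cxcl10 and Bst2 in each case). Over all genes the shares were 32.6% within 1 kb, 37.0% within 2.5 kb, 68.1% within 50 kb and 20.2% with 50% overlap. They were 41.7% without replicate 2 and 42.1% without replicate 1. At 10 or more the share was 31.4%, at 20 or more 24.2%, and without peaks in strong H3K27ac regions 32.5%. At the gene start alone it was 34.3% of genes in the promoter table. Of the 65 other interferon-stimulated genes, 12 had a shared peak, 6 at 20 or more and 5 with 50% overlap. Between 24 and 27 had one when a replicate was left out. The same shares of all genes apply to these counts.

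With an H3K27ac region within 1 kb there were 4 of the 10 genes in CD and 5 in DMSO. The counts were 10 in CD and 10 in DMSO within 50 kb, 4 in CD and 8 in DMSO within 2.5 kb, 1 in CD and 1 in DMSO at a −log10 q of 2 or more, and 3 in CD and 3 in DMSO at the gene start alone. The median CD minus DMSO difference within 2.5 kb, -186.5 bases, was 0 at 2 or more and -35 with 1 value per locus. When each base was multiplied by the fold of its region, the median was -713. From 2.5 to 50 kb the median of -617.5 was -1043 with the lists matched in covered length, which kept 84620 of the CD regions. Weighted by fold it was -2006, against 949 over all genes. The weighted medians are in bases times fold, so they share a sign with the medians in bases but cannot be compared with them in size. The cause of the shifts among the medians in bases was not tested. No paired analysis was possible because each H3K27ac condition had 1 list and the results come from no test. The unknown depth limits every absence of a peak: it was not called at the authors' threshold, which is not the same as no binding or no acetylation.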
